A study of Danio rerio with 3 samples.

Results

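miR-21 was read in whole zebrafish larvae as an abundant 5p strand and a scarce 3p strand, under zebrafish, salmon, human and mouse names. Its members were all sequences whose deposited miRNA name carries the family number 21, whatever the letter, arm, isomiR suffix or species, leaving out the authors' candidate names. The rule found 9 lines for 8 distinct sequences, of 1202 distinct sequences in all. The larvae (AB strain, wild type, whole body) were taken 7 days after fertilisation. They were the next generation of fish kept for 90 days, from 6 hours after fertilisation, in water with 0, 6.25 or 12.5 mg/L of 6 mixed β-diketone antibiotics: ofluoxacin (so spelled in the labels), ciprofloxacin, enrofloxacin, doxycycline, chlortetracycline and oxytetracycline. The larvae themselves are labelled only by the dose of their parents, and 0 mg/L is the control. The question was which small RNAs differ between these larvae. Each dose had 1 library, so no difference has a replicate check, no test was possible, and each "higher" or "lower" is a statement on single libraries. The number of larvae per library is not stated in the labels.

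Total counts were 4534557, 5099264 and 6041242 at parental doses of 0, 6.25 and 12.5 mg/L. The values below are the authors' normalised reads unless counts are named. All 9 sets of tissue miRNAs, for muscle, neurons, liver, pancreas, red blood cells, immune cells, endothelium, smooth muscle and epithelium, had reads in every library, as the whole-body label implies. In whole larvae, fewer cells of a type and less miRNA per cell cannot be told apart.

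A miRNA hairpin is cut into a duplex of a 5p and a 3p strand, of which one is usually kept in the silencing complex and the other, the passenger, is mostly degraded. For miR-21 the 5p strand is the guide. In mammals it is known for repressing PDCD4 and for rising in tumours, inflammation and tissue repair, and in zebrafish embryos it is known for its role in forming the heart valves under blood flow. Bases 2 to 8 of the mature strand, the seed, select most targets.

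The 5p sequences are shown because their differences separate the forms compared below. Capitals mark the seed, and T stands for U.
dre-miR-21: tAGCTTATcagactggtgttggc
hsa-miR-21-5p: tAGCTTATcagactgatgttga
dre-miR-21, C4N and T20C: tAGNTTATcagactggtgtcggc
dre-miR-21 with 1 base more at its 5′ end, G12T and C24T: aTAGCTTAtcatactggtgttggt

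A substitution such as G16A names the base of dre-miR-21 first and that of the read last. Its number is the read position, with 1 for the 5′-most base. The human-named form differs from dre-miR-21 by G16A and G22A and is 1 nt shorter at its 3′ end (22 and 23 nt). Both have the seed AGCTTAT, as does another form, under a mouse name, that had no reads. The only other sequence of the table with this seed was hsa-miR-590-5p (also listed under a gorilla name), with 0.5 counts in the 6.25 mg/L library and 0 in the others. The form with 1 base more starts a base earlier, so its seed is TAGCTTA.

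The 3p sequences are shown because they differ from each other inside the seed. The mouse name counts 3 substitutions, of which the first, 12-T, stands for an added T.
ssa-miR-21b-3p (L-1R+1): gACAACAGtctgtaggctgtct
hsa-miR-21-3p: cAACACCAgtcgatgggctgt
mmu-miR-21a-3p, with 3 substitutions: cAACAGCAgtctaataggctgtc

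The salmon-named strand carries 1 base less at its 5′ end and 1 more at its 3′ end than the annotated salmon form. Its seed, ACAACAG, was found in no other sequence of the table. Folded against each other with RNAduplex, this strand and dre-miR-21 formed 18 predicted base pairs. The human-named 5p form gave the same number with it.

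The zebrafish 5p form, the guide strand, held nearly all miR-21 reads. dre-miR-21 had 199809, 236004 and 146477 normalised reads at 0, 6.25 and 12.5 mg/L. It ranked 8th, 7th and 7th among all sequences, with 3.74%, 4.53% and 3.42% of all counts. The 6.25 mg/L library was the highest and the 12.5 mg/L library the lowest.

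dre-miR-21 was 1.18-fold higher at 6.25 mg/L (236004) than at 0 mg/L (199809), with a 95% exact interval of the ratio of 1.17 to 1.19. At 12.5 mg/L (146477) it stood at 0.733 of the 0 mg/L library (0.728 to 0.738). Against the 6.25 mg/L library the ratio was 0.621 (0.617 to 0.624). None of the 3 differences reached the 2-fold size used as a rule. These intervals, and all others here, cover counting error only, because reads copied by PCR are not independent molecules and larvae vary. With all 5p forms added up, the log2 ratio to the 0 mg/L library was 0.24 for 6.25 mg/L and -0.45 for 12.5 mg/L. Scaling the libraries to equal totals moved the second to -0.13, so the size of the lower value at 12.5 mg/L depended on the scaling.

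The table lists dre-miR-21 on 2 lines with the same values, and RefSeq (GRCz12tu) lists the hairpin genes dre-mir-21-1 and dre-mir-21-2. The mature strand cannot be assigned to either gene. In that assembly dre-mir-21-2 follows vmp1, the gene next to which miR-21 also lies in mammals, and precedes tubd1 and rps6kb1b among protein-coding genes. dre-mir-21-1 lies between rps6kb1a and ptrh2. A further fragment named for the hairpin dre-mir-21-1 (p5), which the rule leaves out, had 1.5, 4 and 3 counts at 0, 6.25 and 12.5 mg/L.

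**Figure D1:**
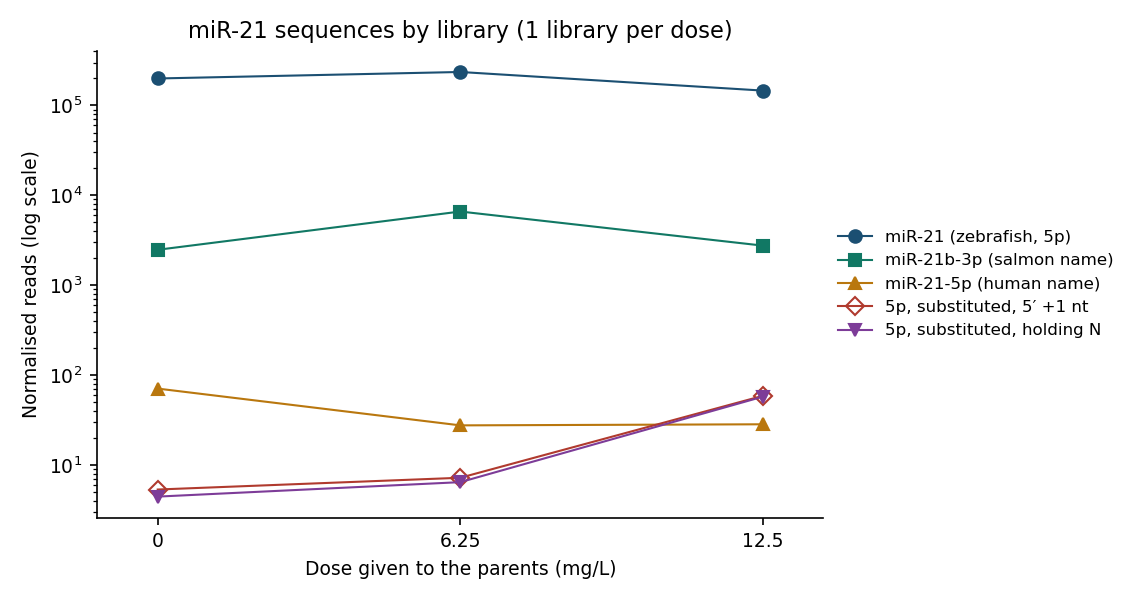
Normalised reads (log scale) of the 5 miR-21 sequences with a mean of 10 or more, by the dose given to the parents (mg/L), 1 point per library. The zebrafish 5p form lies between 146477 and 236004 throughout, the salmon-named 3p strand peaks at 6.25 mg/L (6609.9), and both substituted forms are high in the 12.5 mg/L library alone (58.8 and 57.6).

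The 3p strand, taken here as the passenger of the duplex, was the member that differed most at 6.25 mg/L among the abundant ones. The salmon-named miR-21b-3p sequence had 2480.2, 6609.9 and 2759 normalised reads (2102.5, 6470 and 3891 counts) at 0, 6.25 and 12.5 mg/L. At 6.25 mg/L (6609.9) it was 2.67-fold higher than at 0 mg/L (2480.2), with a ratio interval of 2.54 to 2.80. In the authors' scaling the 6.25 mg/L library stood apart, and the other two lay close together. At 12.5 mg/L (2759) the sequence was 1.11-fold higher than at 0 mg/L (2480.2; interval 1.05 to 1.17). Against the 6.25 mg/L library (6609.9) it stood at 0.417 (0.401 to 0.434). With equal totals the log2 ratio of the summed 3p arm in that last comparison was -0.98, inside 2-fold, where the authors' scaling gave -1.26. For 12.5 against 0 mg/L the log2 ratio of the summed 3p arm was 0.47 with equal totals and 0.15 in the authors' scaling.

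The other 3p sequences were almost absent. hsa-miR-21-3p had 1 count in the 0 mg/L library, mmu-miR-21a-3p had 2 counts at 6.25 mg/L, and both were at 0 elsewhere. A mouse-named miR-21c sequence of the 5p arm had no count in any library. A count of 0 allows up to 3 counts of the total, that is 6.62e-05%, 5.88e-05% and 4.97e-05% of counts at 0, 6.25 and 12.5 mg/L.

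The balance of the arms does not depend on how libraries are scaled. The 3p arm held 1.23%, 2.72% and 1.85% of miR-21 reads at 0, 6.25 and 12.5 mg/L. Their 95% exact intervals ran from 1.17 to 1.28, from 2.66 to 2.79 and from 1.79 to 1.91. The 3 intervals, which cover counting error only, do not overlap. The 3p share was above that of the 0 mg/L library in both libraries of exposed parents. The 3p to 5p ratio of 72 other miRNAs, described below, was also higher there in the median (log2 difference 0.26 and 0.22). For miR-21 the 3p to 5p ratio was 2.26 times as large at 6.25 as at 0 mg/L (95% interval from the log odds 2.15 to 2.37). At 12.5 mg/L it was 1.52 times as large as at 0 mg/L (1.44 to 1.60). At 12.5 mg/L it was 0.672 of that at 6.25 mg/L (0.645 to 0.699). If the 2 lines of dre-miR-21 each hold a part of its reads, the true shares are lower, at 0.617%, 1.38% and 0.932% for 0, 6.25 and 12.5 mg/L with the lines added up. The ratios between libraries barely move.

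**Figure D2:**
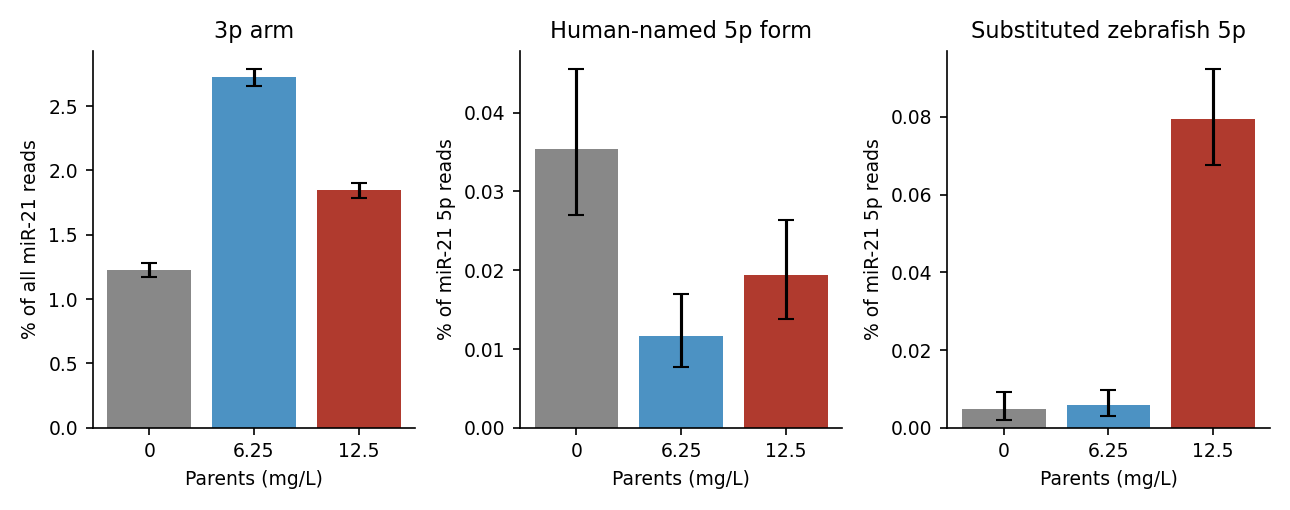
Share of miR-21 reads in each library (bars, %), with 95% exact counting intervals (lines), by the dose given to the parents (mg/L): the 3p arm among all miR-21 reads, the human-named form among 5p reads and the 2 substituted zebrafish forms among 5p reads. The 3p arm has its highest bar at 6.25 mg/L (2.72%), the human-named form at 0 mg/L (0.0354%) and the substituted forms at 12.5 mg/L (0.0794%).

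As a background, 72 other miRNAs had reads under names for both arms, with a mean of 10 or more for each arm. Sequences named without an arm, as dre-miR-21 itself is, did not count in this background. The arm of dre-miR-21 was set by its sequence, and it counts in the 5p arm of miR-21. An arm of the 72 can therefore lack a main form, so the ranks below compare sums made in unlike ways. At 6.25 against 0 mg/L their 3p to 5p ratio was at least 2-fold higher in 3 (4.17%) and as far below in 2 (2.78%), and the median difference was 0.26 on the log2 scale. The miR-21 difference was 1.17. Of the 72, only miR-145 had a larger one (1.46). For 12.5 against 0 mg/L the miR-21 difference of 0.60 was exceeded by 19 of 72, and 7 were at least 2-fold higher (9.72%). The median of the 72 was 0.22 in that pair. For 12.5 against 6.25 mg/L its difference was -0.57, with 14 of 72 lower still and 6 at least 2-fold lower (8.33%). The comparisons with 0 mg/L share that library.

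**Figure D3:**
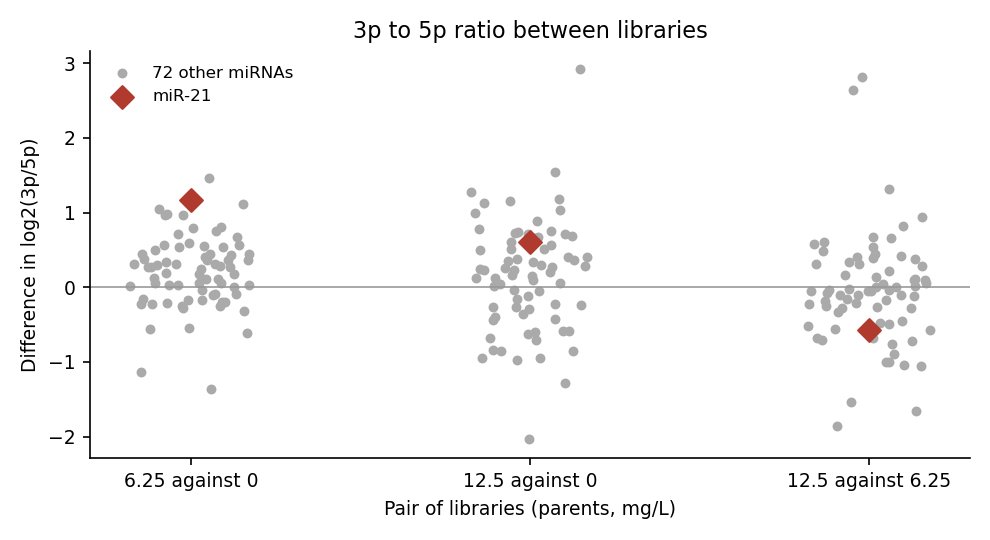
Difference in log2(3p/5p) between libraries for miR-21 (diamond) and 72 other miRNAs with both arms named (grey points, spread sideways for legibility), for each pair of libraries. miR-21 is the second highest at 6.25 against 0 mg/L (1.17) and lies within the cloud for the other pairs. Arms of the other miRNAs leave out sequences named without an arm, whereas the 5p arm of miR-21 includes dre-miR-21.

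The human-named 5p form was scarce and lower at both doses. hsa-miR-21-5p had 70.8, 27.6 and 28.4 normalised reads (60, 27 and 40 counts) at 0, 6.25 and 12.5 mg/L. The 0 mg/L library stood above both others, which lay within counting error of each other (ratio of 12.5 over 6.25 mg/L 1.03, 0.616 to 1.74). It stood at 0.390 of the 0 mg/L library at 6.25 mg/L (0.238 to 0.623) and at 0.401 at 12.5 mg/L (0.262 to 0.608). Its share of 5p reads was 0.0354% (0.0270 to 0.0456), 0.0117% (0.00770 to 0.0170) and 0.0193% (0.0138 to 0.0263) for 0, 6.25 and 12.5 mg/L. The fish-named 5p forms together had log2 ratios to 0 mg/L of 0.24 and -0.45 for 6.25 and 12.5 mg/L, where the human-named form had -1.33 and -1.29.

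Other mammal-named sequences written with no isomiR suffix had lower sums at both doses. The 46 outside miR-21 that had reads summed to 169, 78.2 and 55.2 normalised reads (143.5, 76.5 and 77.8 counts) at 0, 6.25 and 12.5 mg/L. Of the 46, 30 were lower than at 0 mg/L in both libraries of exposed parents, while 12 were higher at 6.25 mg/L and 7 at 12.5 mg/L. Among all 193 mammal-named sequences with reads, miR-21, suffixed forms and the 46 included, 92 were lower in both. Of 471 sequences under any name with a mean of 10 or more, 191 were lower at 6.25 mg/L and 215 at 12.5 mg/L than at 0 mg/L. The 46 had no such limit. A sequence with reads at 0 mg/L alone counts as lower in both. Most of the 46 were scarce, with 36 of them at 3 counts or fewer in every library. Besides hsa-miR-21-5p, those with a mean of 10 or more, chosen here because they are few, were eca-miR-146a and bta-miR-186. The first had 46.0, 17.9 and 8.04 normalised reads at 0, 6.25 and 12.5 mg/L, and the second 33.0, 13.3 and 9.93. The part of such sequences in the lower value of hsa-miR-21-5p was not tested. With suffixes included, 25 mammal-named sequences outside miR-21 had a mean of at least 10. Of these, 3 were at least 2-fold lower at 6.25 mg/L than at 0 mg/L and 5 at 12.5 mg/L. At 12.5 mg/L, 6 were at least 2-fold higher than at 0 mg/L.

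The substituted zebrafish forms were high in the 12.5 mg/L library alone. The form with C4N and T20C had 4.45, 6.44 and 57.6 normalised reads (3.77, 6.30 and 81.2 counts) at 0, 6.25 and 12.5 mg/L. The form with G12T, C24T and an added 5′ base had 5.33, 7.21 and 58.8 (4.52, 7.05 and 83.0 counts) at those doses. The values of both forms nearly coincide in each library, and no source used here explains their fractional counts. At 12.5 mg/L the first was 12.9-fold higher than at 0 mg/L (4.57 to 45.7) and the second 11.0-fold higher (4.11 to 31.5). At 6.25 mg/L the intervals of their ratios to 0 mg/L included 1 (0.308 to 6.26 and 0.331 to 4.84).

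Together they made up 0.00489%, 0.00578% and 0.0794% of 5p reads at 0, 6.25 and 12.5 mg/L, too few to move the sum of the arm. The letter N marks a base the sequencer did not call. The table held 67 sequences with an N outside miR-21 that had reads, 46 of them with the N at position 4, as here. They summed to 288, 251 and 829 normalised reads at 0, 6.25 and 12.5 mg/L, and 64 of the 67 were higher at 12.5 than at 0 mg/L. With a mean of 10 or more, 9 of 10 such sequences were higher in that pair. Over all 466 sequences outside miR-21 with that mean, 253 were. Whether the 67 share reads with each other was not tested. Outside miR-21, 122 sequences with a substitution in the name had a mean of 10 or more. Of these, 33 were at least 2-fold higher at 12.5 than at 0 mg/L, against 16 of 344 without one. A sequence high at 12.5 mg/L alone can pass this mean through that library, which adds to such counts. The part of base calling in the values of the 2 forms was not tested.

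Of the 8 members, 5 had a mean of 10 or more over the libraries, and both substituted forms passed through the 12.5 mg/L library alone. The substituted forms are listed as 2 members, though their values are not independent. The 3 others reached 2 counts at most in any library. Of 471 such sequences in the table, 2.55% lay at least 2-fold above and 2.55% at least 2-fold below, at 6.25 against 0 mg/L. The members past 2-fold there were the salmon-named 3p strand (higher) and hsa-miR-21-5p (lower). For 12.5 against 0 mg/L the shares were 10.8% higher and 4.25% lower, and the members were both substituted forms (higher) and hsa-miR-21-5p (lower). With equal totals hsa-miR-21-5p was inside 2-fold in that pair (log2 ratio -0.98). For 12.5 against 6.25 mg/L the shares were 11% higher and 3.4% lower, with both substituted forms higher and the 3p strand lower.

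**Figure D4:**
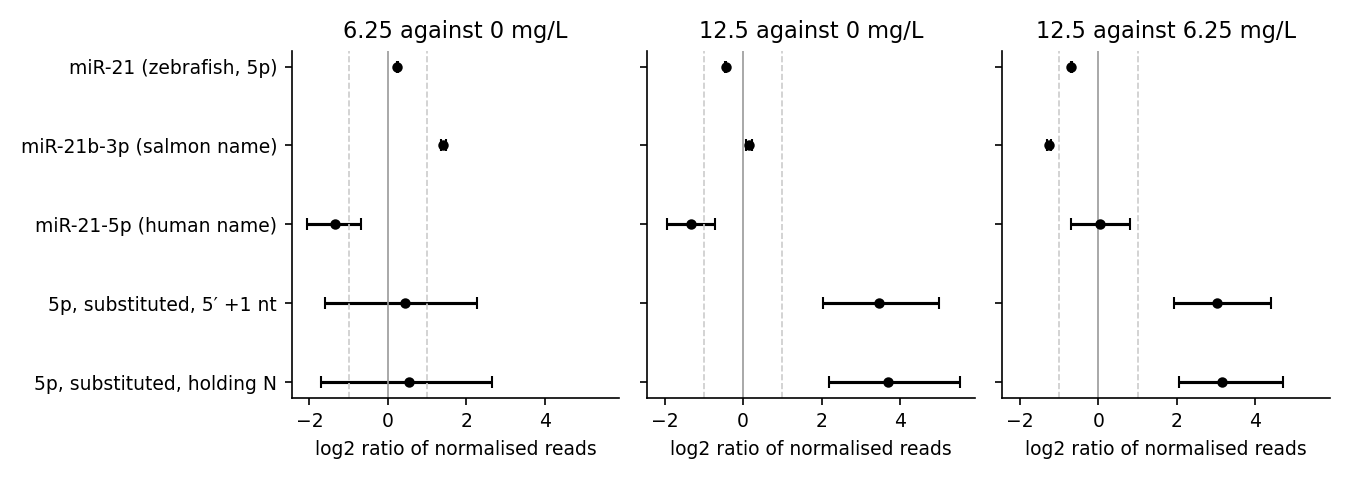
Log2 ratios of normalised reads for 5 miR-21 sequences in each pair of libraries (points), with 95% exact counting intervals (lines) and dashed lines at 2-fold. The zebrafish 5p form stays within 2-fold in every pair, the 3p strand exceeds 2-fold at 6.25 against 0 mg/L, and the intervals of the substituted forms lie above 2-fold at 12.5 mg/L against either library.

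Sequences of other families with the most similar pattern were sought among 237 candidates under zebrafish names (mean of 100 or more), by the distance between their log2 ratios to 0 mg/L over the 3 libraries. Nearest to dre-miR-21 were miR-2184 with 1 nt more at its 3′ end (distance 0.023; 9868, 11606 and 7344 normalised reads), miR-27b-5p 1 nt shorter (0.039) and miR-10d-3p 1 nt shorter (0.044). Nearest to the 3p strand were miR-430b-3p 2 nt shorter (0.53; 154.5, 298 and 146.4), the p3 strand of mir-194b (0.76) and miR-126a-5p (0.78). No candidate was as close to the 3p strand as these 3 were to dre-miR-21.

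A list of 14 families linked to inflammation, hypoxia and tissue repair, settings in which miR-21 is known to respond, was read beside it. Of its 32 sequences with a mean of 10 or more, 1 was at least 2-fold higher and 2 lower at 6.25 than at 0 mg/L. Over all 471 the shares were 2.55% and 2.55%. The median log2 ratio of the list was -0.05, against 0.11 over all 471. At 12.5 against 0 mg/L, 2 were higher and 2 lower, where the shares over all 471 were 10.8% and 4.25%. The median of the list there was 0.24, against 0.08. miR-146a, a brake on innate immune signalling, had log2 ratios of 0.33 and 0.43 at the lower and higher dose. miR-155 of activated immune cells, 1 nt longer, had -0.59 and -1.05. The hypoxia-linked miR-731, 1 nt shorter, had -1.07 and -0.62, and miR-462, 1 nt longer, had -0.68 and -0.60. miR-29b, which represses collagens, had 0.27 and 0.35 in its form 1 nt longer, and miR-199-3p of mesenchyme had 0.22 and 0.00. A miR-210-3p form, also hypoxia-linked but scarce (20.1, 15.3 and 34.7 normalised reads at 0, 6.25 and 12.5 mg/L), had -0.37 and 0.76. miR-142a-5p of blood cells had 0.57 and 0.65, and a miR-214-3p form of mesenchyme had 0.15 and 0.90. miR-145-5p of smooth muscle, 1 nt longer, had -0.76 and -0.10. A substituted miR-132-5p form had 0.43 and -0.01, and a miR-34b form had -0.14 and -0.13. No sequence of miR-150 or miR-223 reached a mean of 10. dre-miR-21, at 0.24 and -0.45, was above 0 at the lower dose and below 0 at the higher one.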

How the data were processed

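The authors deposited 4 tables, 1 with all 3 libraries and 1 for each pair. Per the labels' protocols, libraries were made from total RNA (Trizol) with the TruSeq small RNA kit and read as single ends of 36 bp on an Illumina HiSeq. Zv9 is the build in the submitters' processing notes. The aligner, the miRNA database and the way of counting were not given in the sources used here. Per the file headers, the raw columns hold counts per sequence, deposited by the authors as estimated counts (expected counts), since 74.9% of the values above 0 of sequences on 1 line were whole (tolerance 1e-09), against 47.0% for those on 2 lines. The authors' normalised signal was the count times 1 factor per library (1.18, 1.02 and 0.709 for 0, 6.25 and 12.5 mg/L). The authors also deposited a ratio (fold), its log2 and p-values for pairs of single libraries, which were not used here. None of 15276 values differed between the tables.

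Lines of the same sequence were taken as 1 (the most abundant kept). Ratios are of normalised values, and log2 ratios have a pseudocount of 1, which understates differences of scarce sequences. Intervals are exact (Clopper-Pearson, 95%) intervals of rounded counts, so their precision follows the count. Python 3.11.15, scipy 1.17.1 and RNAduplex 2.7.2 were used, and the interval code was tested on simulated data. Named were all members, the 3 nearest patterns and the top form of related families. The members and lists were chosen with earlier results of these data known. The arm background and the classes by name or N were added after the data were seen. Alternatives changed the pseudocount, the scaling, the handling of lines, substituted sequences and the filter.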

Additional observations from a re-analysis of the deposited data

How the results depend on the processing

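No paired analysis was possible because each dose had 1 library and no test was run. Log2 ratios of the summed 5p arm and of its fish-named forms kept their sign under all alternatives. In the order 6.25 against 0, 12.5 against 0 and 12.5 against 6.25 mg/L, the 5p arm had 0.28, -0.13 and -0.40 with equal totals and 0.16, -0.56 and -0.72 with the median of ratios. The 3p arm had 0.47 at 12.5 against 0 mg/L and -0.98 at 12.5 against 6.25 mg/L with equal totals. With the median of ratios it had 1.33 at 6.25 against 0 and 0.036 at 12.5 against 0 mg/L. The mammal-named form stayed within its wide counting interval throughout. At 12.5 against 0 mg/L it was at -0.98 with equal totals, inside 2-fold, where the authors' scaling gave -1.29. Adding up the lines of a sequence gave 3p shares of 0.617%, 1.38% and 0.932% for 0, 6.25 and 12.5 mg/L, while leaving out substituted forms, or mammal-named ones (added later), kept each share inside its interval. Of 99 further values of single members, 88 stayed inside their interval and none changed sign past 2-fold. The 88 include settings that cannot move a single sequence. Examples are dropping the filter, or adding up lines for a member on 1 line. Their number is therefore no measure of stability.

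Counts of all sequences past 2-fold moved by over 1.5 times as follows. At 6.25 against 0 mg/L, 12 were higher and 12 lower, against 3 higher with a pseudocount of 10, 7 higher without substituted sequences, and 116 higher and 103 lower with no filter. At 12.5 against 0 mg/L, 51 and 20 became 12 lower with a pseudocount of 10, 89 higher and 10 lower with equal totals, 16 higher without substituted sequences, and 175 and 122 with no filter. At 12.5 against 6.25 mg/L, 52 and 16 became 5 lower with a pseudocount of 10, 8 lower with equal totals, 19 higher without substituted sequences, and 156 and 116 with no filter. Without the filter scarce sequences enter, and a larger pseudocount shrinks their ratios. Equal totals raise each log2 ratio, before the pseudocount, by 0.32 at 12.5 against 0 mg/L. At 12.5 against 6.25 mg/L the shift is 0.28. Depth limits the human-named and substituted forms, which rest on 3.77 to 83.0 counts a library.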
